A study of Mus musculus with 12 samples.

Results

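Untreated β-thalassemic pro-erythroblasts (Pro-E) were compared with untreated wild-type (WT) Pro-E, in 6 of the 12 RNA libraries of the study. Pro-E, the earliest erythroblasts that can be recognised by their size and surface markers, were sorted from mouse bone marrow, with 2–3 mice pooled per library. The 3 β-thalassemic libraries came from Hbb th1/th1 mice, which lack an adult β-globin gene on both chromosomes. The 3 WT libraries came from mice that carry this gene. All 6 pools of mice were injected with 200 µl of PBS over 20 days, and cells were collected 3 days after the last injection. The other 6 libraries came from mice of the same genotypes given 10 mg of human apotransferrin (apoTf, transferrin without iron; 400 mg/kg per day). The labels give the strain as C57BL6 and an age of 5 months for every library, whereas the study's methods describe a mixed background and a younger age. A phlebotomy is also part of each label, but the sources do not show that the mice of these libraries were bled. Libraries were assigned by their titles, because the genotype tag of every library is the opposite of its title. Of 24453 genes in the deposited table, 9650 were tested. Each of them reached 1 FPKM (a count of fragments scaled to transcript length and library depth) in 3 or more of the 12 libraries. Pooling leaves 3 values per group, so each error is between pools and not between mice.

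In β-thalassemia, too little β-globin is made and unpaired α-globin chains precipitate in maturing erythroblasts, many of which die before they leave the marrow. The resulting anaemia raises erythropoietin (Epo), which acts through its receptor, the kinase JAK2 and the transcription factor STAT5 to keep early erythroblasts alive. STAT5 dimers bind the palindromic motif TTCNNNGAA. Among the genes that Epo induces in erythroblasts are Fam132b (erythroferrone), a hormone that lowers hepcidin in the liver, and Cish, which restrains cytokine receptor signalling.

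Promoters of 3 of the genes that were higher in β-thalassemic Pro-E are shown because Epo acts through STAT5 and Cish is an established STAT5 target. Each runs from 250 bases before to 50 bases after the RefSeq start of the gene in GRCm38.p6, with matches to TTCNNNGAA in capitals. The Cish promoter is on the plus strand at chr9:107296409-107296708, that of Plek2 on the minus strand at chr12:78906889-78907188 and that of Fam132b on the plus strand at chr1:91366180-91366479.
Cish: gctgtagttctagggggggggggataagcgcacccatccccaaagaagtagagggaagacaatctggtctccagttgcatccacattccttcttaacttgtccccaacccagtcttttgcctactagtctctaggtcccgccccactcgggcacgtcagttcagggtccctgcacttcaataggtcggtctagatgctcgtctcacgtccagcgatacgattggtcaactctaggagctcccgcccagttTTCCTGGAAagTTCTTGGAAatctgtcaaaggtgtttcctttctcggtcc
Plek2: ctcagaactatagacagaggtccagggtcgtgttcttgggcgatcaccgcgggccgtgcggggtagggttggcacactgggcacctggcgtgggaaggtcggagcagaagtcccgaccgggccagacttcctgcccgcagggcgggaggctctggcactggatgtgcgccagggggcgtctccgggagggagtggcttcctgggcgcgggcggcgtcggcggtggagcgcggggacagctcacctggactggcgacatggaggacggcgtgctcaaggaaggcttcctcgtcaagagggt
Fam132b: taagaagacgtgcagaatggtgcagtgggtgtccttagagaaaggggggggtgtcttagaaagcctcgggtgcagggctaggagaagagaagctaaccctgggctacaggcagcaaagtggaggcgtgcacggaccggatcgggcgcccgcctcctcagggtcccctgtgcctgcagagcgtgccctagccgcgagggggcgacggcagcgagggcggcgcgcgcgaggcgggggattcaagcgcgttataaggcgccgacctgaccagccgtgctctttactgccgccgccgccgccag
Cish had 2 matches, at and just after its start, and Plek2 and Fam132b had none in this window. Over all 27025 genes with a promoter sequence, 8.47% had a match, so its presence or absence in single genes is a description of these letters only.

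One library stood apart before any comparison. WT replicate 1 had Spearman correlations of 0.848 to 0.905 with the other 11 libraries, which correlated with each other at 0.977 to 0.995. It held 31177 FPKM of the ribosomal precursor transcript Rn45s, against 1609 to 6116 in the other 11. Its depth, taken from the smallest spacing of FPKM values, was 33500000 reads, against 43800000 to 46800000 in the other 5 untreated libraries. The transferrin receptor gene Tfrc was at 77.3 FPKM in it and at 295 to 494 in the other 5. On the log2 scale 2597 of the 9650 genes differed over 2-fold between WT replicate 1 and the mean of WT replicates 2 and 3, whereas 120 did between WT replicates 2 and 3. The calls and list counts are therefore given with and without this library, in which case WT rests on 2 libraries.

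The libraries carried the genes of the labelled cell. The 10 erythroid identity markers, among them Gata1, Klf1, Epor and Tfrc, summed to 1836 to 2203 FPKM in WT and to 1733 to 2178 FPKM in β-thalassemic Pro-E, and all 10 reached 1 FPKM. Hba-a1 and Hba-a2 gave 1294 of the 2054 FPKM in WT replicate 1. They gave 705 and 907 FPKM in WT replicates 2 and 3. Like sums therefore do not mean like levels of each marker. Markers of neutrophils summed to 3.07, 22.0 and 42.9 FPKM in WT and to 7.21, 0.910 and 5.80 FPKM in β-thalassemic libraries (15 genes, 9 of them at or above 1 FPKM in any of these libraries; two-sided exact permutation test, p = 0.30, smallest possible 0.10). Markers of mast cells, basophils and eosinophils summed to 0.483, 4.29 and 6.85 FPKM in WT and to 0.354 to 0.740 FPKM in β-thalassemic libraries, mostly Prg2. Both sums were therefore highest in WT replicates 2 and 3, the libraries on which WT rests without replicate 1. In apoTf-treated WT the neutrophil sum was 26.7, 52.8 and 2.99 FPKM. Monocyte and macrophage markers summed to 3.03 to 6.004 FPKM in WT and 2.85 to 3.39 FPKM in β-thalassemic libraries, B cell markers to at most 1.21 and T and NK cell markers to at most 2.67 FPKM. Endothelial and stromal markers summed to 0.572 to 1.43 FPKM in WT and to 0.137 to 0.338 FPKM in β-thalassemic libraries. Of the 9 T and NK cell markers 5 were at 0 in all 6 libraries, and of each other marker list at most 1. Megakaryocyte markers summed to 14.1 to 21.4 FPKM in WT and to 10.1 to 12.2 FPKM in β-thalassemic libraries, mostly Gp9 and Vwf. The part of other cells in the results below was not tested. In bulk RNA, fewer cells of a kind and less RNA per cell cannot be told apart.

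Between untreated β-thalassemic and WT Pro-E, 25 genes passed an adjusted p of 0.05 (limma on log2(FPKM + 0.5), Benjamini-Hochberg over the 9650 genes), 15 higher and 10 lower. This is 0.259% of the genes tested, 0.155% higher and 0.104% lower. Without WT replicate 1 it was 31 genes or 0.321%, 16 higher (0.166%) and 15 lower (0.155%). The calls shared 23 genes, with 2 called only with all libraries (Arhgdig and Osbpl3) and 8 only without WT replicate 1. For all 25 genes, the 3 β-thalassemic libraries lay beyond the 3 WT libraries, as they did for 6.92% of all genes tested (3.68% higher and 3.24% lower). At an unadjusted p below 0.05, 249 genes (2.58%) were higher and 490 (5.08%) lower. Without WT replicate 1 these counts were 158 (1.64%) and 591 (6.12%). The count of calls was 6 without β-thalassemic replicate 1, 6 without replicate 2 and 13 without replicate 3, and it was 90 without WT replicate 2. Of 25 calls, 4 (Podxl, Cda, Tnfrsf21 and Stard10) passed in every alternative that tested them. Cda, Osbpl3 and Cish reached 1 FPKM only in the 3 untreated β-thalassemic libraries. Podxl also reached it in apoTf-treated β-thalassemic replicate 1, and Slfn9 in apoTf-treated β-thalassemic replicate 3. Trim12a, a lower gene, reached it only in WT replicates 2 and 3 and in the apoTf-treated WT libraries. These genes therefore met the filter only through the genotype in which they were higher.

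**Figure D1:**
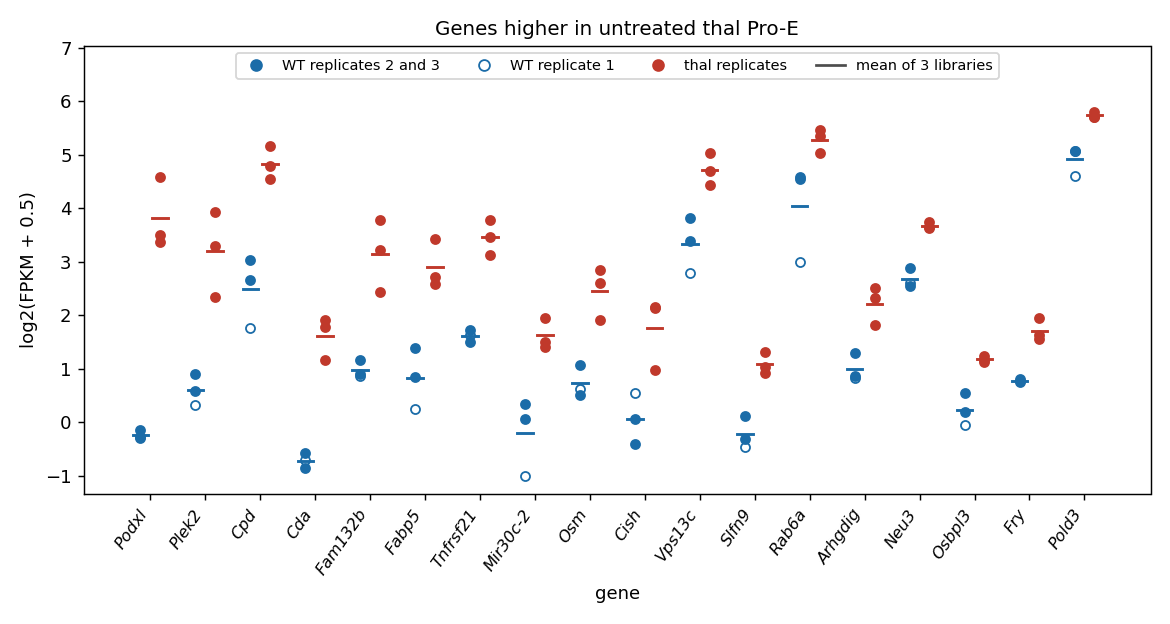
Level of 18 genes that were higher in untreated β-thalassemic (thal) than in WT Pro-E with all libraries, without WT replicate 1, or both. The y axis is log2(FPKM + 0.5), each point is 1 library of pooled mice, open points are WT replicate 1 and bars are means of 3 libraries; the 3 thal points lie above the 3 WT points for each gene.

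Among the genes that encode secreted proteins, Fam132b and Osm rose. Fam132b was at 1.33, 1.38 and 1.75 FPKM in the 3 WT libraries and at 8.82, 13.3 and 4.89 FPKM in the 3 β-thalassemic ones. The lowest β-thalassemic library was above the highest WT library, and the β-thalassemic libraries varied far more among themselves than the WT libraries did. Its log2 fold change was 2.16 ± 0.28 (SE, adjusted p = 0.0072 by limma), and 2.10 without WT replicate 1 (adjusted p = 0.0078). Osm, which encodes oncostatin M, a cytokine of the interleukin-6 family, was at 1.04, 0.922 and 1.61 FPKM in WT and at 5.55, 6.73 and 3.27 FPKM in β-thalassemic libraries. β-thalassemic replicate 3 was again the lowest of its group for this gene. The log2 fold change of Osm was 1.72 ± 0.25 (adjusted p = 0.016), and 1.66 without WT replicate 1 (adjusted p = 0.022). Twsg1, which encodes another erythroblast protein studied as a hepcidin regulator, had a log2 fold change of 0.36 (unadjusted p = 0.20), and -0.03 without WT replicate 1.

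Genes for cell-surface and membrane proteins held the largest difference. Podxl, a sialomucin related to CD34 that marks blood progenitors, was at 0.323, 0.318 and 0.403 FPKM in WT and at 10.8, 23.6 and 9.86 FPKM in β-thalassemic libraries. Its mean FPKM was 42.4 times the WT mean (log2 fold change 4.06, 95% interval 3.40 to 4.72, adjusted p = 0.00014 by limma). Tnfrsf21, the TNF receptor family member known as death receptor 6, was at 2.58, 2.34 and 2.79 FPKM in WT and at 10.6, 13.2 and 8.29 FPKM in β-thalassemic libraries. Its WT libraries lay close together and its mean was 4.15 times higher. Cpd, a membrane-bound carboxypeptidase that trims basic residues from proteins in the secretory pathway, was at 2.91, 5.79 and 7.67 FPKM in WT and at 27.1, 35.3 and 22.8 FPKM in β-thalassemic libraries. WT replicate 1 was the lowest of the 6, and the ratio of means went from 5.20 to 4.22 without it. Cpd was also the most abundant of the 15 higher genes, with a mean of 28.4 FPKM in β-thalassemic Pro-E.

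Plek2 encodes pleckstrin-2, which binds phosphoinositides and acts on the actin cytoskeleton of erythroblasts. It was at 0.750, 1.00 and 1.38 FPKM in WT and at 9.36, 14.8 and 4.58 FPKM in β-thalassemic libraries. Replicate 2 was the highest and replicate 3 the lowest of the β-thalassemic libraries for Plek2, Osm, Podxl, Fam132b, Tnfrsf21 and Cpd. That order was also seen in genes that were not called, such as Tfrc, Hbb-bt and Hsp90aa1, and was not seen in Cda. Its share over all genes was not counted, so it is not a trait of the genes named. The log2 fold change of Plek2 was 2.59 ± 0.39 (adjusted p = 0.018), and 2.45 without WT replicate 1 (adjusted p = 0.028). Cish showed the same order of groups at lower levels, with 0.962, 0.549 and 0.251 FPKM in WT and 3.88, 3.96 and 1.48 FPKM in β-thalassemic libraries. It did not pass with all libraries (log2 fold change 1.69, adjusted p = 0.091) and passed without WT replicate 1, its highest WT library (1.93, adjusted p = 0.033).

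Other genes that rose encode enzymes and lipid-binding proteins. Cda, the cytidine deaminase of pyrimidine salvage, was at 0.111, 0.053 and 0.168 FPKM in WT and at 1.75, 2.95 and 3.26 FPKM in β-thalassemic libraries. It was nearly silent in WT, and here β-thalassemic replicate 1 was the lowest. Fabp5, a fatty acid binding protein, was at 0.690, 1.30 and 2.13 FPKM in WT and at 6.08, 10.2 and 5.48 FPKM in β-thalassemic libraries (log2 fold change 2.08 ± 0.34, adjusted p = 0.029). Vps13c, which carries lipids between organelles, was at 6.42, 13.6 and 10.0 FPKM in WT and at 25.5, 32.2 and 21.1 FPKM in β-thalassemic libraries. The log2 fold change of Vps13c was 1.39 with WT replicate 1 and 1.12 without it (adjusted p = 0.034 and 0.016). Neu3, a sialidase that acts on gangliosides of the plasma membrane, was at 5.61, 5.35 and 6.90 FPKM in WT and at 11.8, 12.1 and 13.0 FPKM in β-thalassemic libraries. The libraries of each group lay close together for this gene. Osbpl3, an oxysterol-binding protein relative, was at 0.471 to 0.958 FPKM in WT and at 1.67 to 1.86 FPKM in β-thalassemic libraries, and its call was lost without WT replicate 1 (adjusted p = 0.069).

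The remaining higher genes were low in both groups. Slfn9 of the Schlafen family was at 0.231 to 0.587 FPKM in WT and at 1.39 to 2.00 FPKM in β-thalassemic libraries. Arhgdig was at 1.27 to 1.96 and 3.04 to 5.22 FPKM, and was not called without WT replicate 1 (adjusted p = 0.058). Fry, the counterpart of the furry gene of Drosophila, was at 1.19 to 1.25 and 2.44 to 3.36 FPKM. The entry named Mir30c-2, the 84-base precursor of miR-30c, was at 0, 0.764 and 0.543 FPKM in WT, which is 0, 3 and 2 reads, and at 3.38, 2.15 and 2.35 FPKM in β-thalassemic libraries, which is 13, 8 and 9 reads. So few reads of a precursor in polyadenylated RNA do not measure the mature miRNA.

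The deleted globin was among the genes that fell, and some of its signal was left in every library. Hbb-b1, the entry for the adult β-major gene, was at 722, 1768 and 1788 FPKM in WT and at 133, 175 and 149 FPKM in β-thalassemic libraries. No β-thalassemic library came near the WT range, and none was at 0. The log2 fold change was -3.12 ± 0.43 (adjusted p = 0.011), and -3.55 without WT replicate 1 (adjusted p = 0.00080). The entry Hbb-bs (chr7:103826534-103828096, minus strand) held nearly the same values as Hbb-b1 in each library, and Hbb-bt (chr7:103812524-103813996, minus strand) nearly the same as Hbb-b2, so each pair is read here as 1 measurement, although Hbb-b1 and Hbb-bs both count among the calls. Hbb-bt, the adult gene that lies next to it, was at 350, 592 and 668 FPKM in WT and at 815, 1131 and 577 FPKM in β-thalassemic libraries. The groups overlapped and Hbb-bt was not called (log2 fold change 0.65, adjusted p = 0.53, and 0.37 without WT replicate 1, adjusted p = 0.91).

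The coding sequences of Hbb-bs and Hbb-bt are shown because the residual level of Hbb-bs is read against so close a copy. In the GENCODE M21 transcripts they are 444 bases long and differ at 1 base, C417T, counted from the start codon of Hbb-bs. Bases 377 to 444 of each are given with that base in capitals. These are sequences of the reference genome, and whether the β-thalassemic mice carry the same sequences was not tested.
Hbb-bs: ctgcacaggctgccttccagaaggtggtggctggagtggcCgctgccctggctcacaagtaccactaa
Hbb-bt: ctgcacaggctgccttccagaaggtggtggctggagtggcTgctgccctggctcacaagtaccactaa
Of the 579 windows of 50 bases in the Hbb-bs transcript, 381 also occur in Hbb-bt, and the authors kept only reads with 1 alignment. A 50-base read from one of these windows aligns to both genes. Whether the 133 to 175 FPKM left for Hbb-b1 came from reads of the neighbouring gene was not tested. Hbb-bs made up 67.1%, 74.9% and 72.8% of the summed Hbb-bs and Hbb-bt FPKM in WT and 13.8%, 13.2% and 20.3% in β-thalassemic libraries (exact permutation test, p = 0.10, the smallest possible).

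The other globins did not pass the test. Hba-a1, the adult α-globin, was at 654, 358 and 460 FPKM in WT and at 319, 402 and 369 FPKM in β-thalassemic libraries, and Hba-a2 nearly the same. The ratio of summed α-globin (Hba-a1 and Hba-a2) to summed adult β-globin FPKM was 1.22, 0.299 and 0.370 in WT and 0.665, 0.609 and 1.00 in β-thalassemic libraries. The ratio was higher in each β-thalassemic library than in WT replicates 2 and 3, and WT replicate 1 had the highest ratio of all (exact permutation test with all 6 libraries, p = 0.60). Hbb-bh1, a β-like globin gene of the embryo, and its relative Hbb-bh2 were below the filter. Hbb-bh1 was at 0.049, 0.035 and 0.075 FPKM in WT and at 0.393, 0.406 and 0.465 FPKM in β-thalassemic libraries, where 1 read per kilobase is 0.0214 to 0.0299 FPKM. Hbb-bh2 was at 0 to 0.038 FPKM in WT and at 0.195 to 0.363 FPKM in β-thalassemic libraries. In a fit with no filter (17977 genes) the adjusted p was 0.032 for Hbb-bh1 and 0.061 for Hbb-bh2, and 0.10 and 0.14 without WT replicate 1. Both genes lie in the β-globin cluster on chromosome 7.

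**Figure D2:**
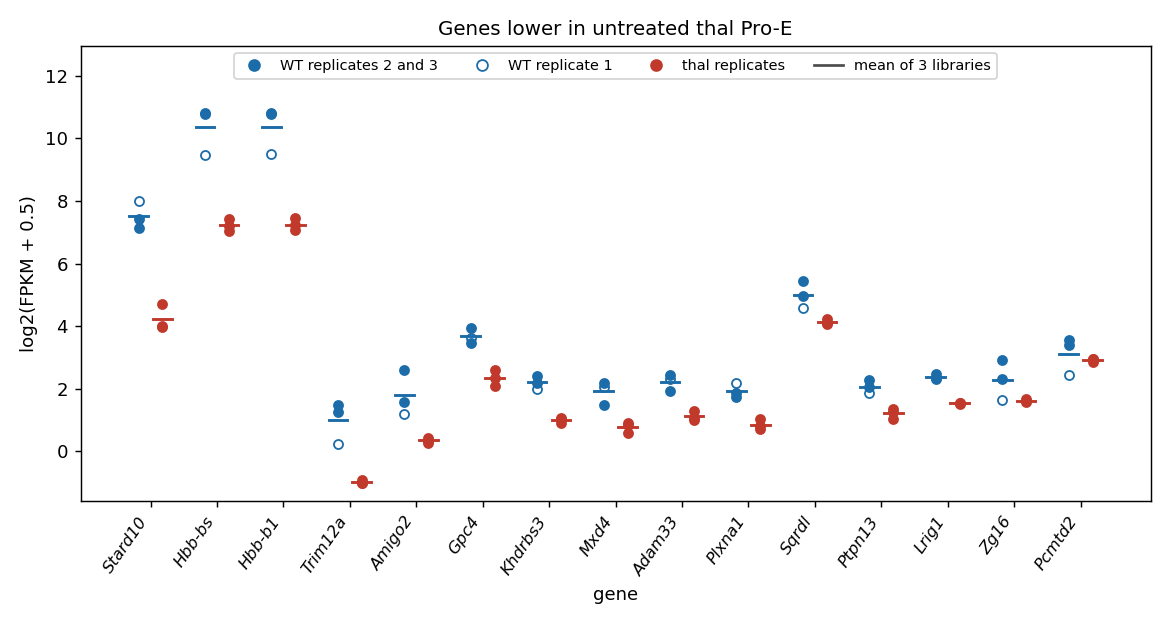
Level of 15 genes that were lower in untreated β-thalassemic (thal) than in WT Pro-E with all libraries, without WT replicate 1, or both. The y axis is log2(FPKM + 0.5), each point is 1 library of pooled mice, open points are WT replicate 1 and bars are means of 3 libraries; for Zg16 and Pcmtd2 the open point falls within or below the thal points.

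Stard10, which carries phospholipids between membranes, fell about as far as the globin with all libraries. It was at 254, 140 and 172 FPKM in WT and at 15.2, 15.5 and 25.8 FPKM in β-thalassemic libraries. The mean was 10.0 times lower (log2 fold change -3.29 ± 0.26, adjusted p = 0.00014). Without WT replicate 1 its log2 fold change was -3.06 (adjusted p = 7.5e-05), beside -3.55 for Hbb-b1. Trim12a, a member of the tripartite motif family related to Trim5, was at 0.684, 2.32 and 1.92 FPKM in WT and was listed at 0, 0.030 and 0 FPKM in β-thalassemic libraries. Its neighbour Trim12c ran the other way, with 1.17, 2.74 and 2.52 FPKM in WT and 4.21, 3.89 and 4.14 FPKM in β-thalassemic libraries, but it was not called (log2 fold change 0.85, adjusted p = 0.32, and 0.55 without WT replicate 1, adjusted p = 0.17). Trim12a and Trim12c are similar genes that can share reads, and Trim12c was named after its values were seen.

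The other genes that fell encode surface, adhesion and regulatory proteins. Gpc4, a heparan sulfate proteoglycan of the cell surface, was at 11.8, 10.5 and 15.0 FPKM in WT and at 3.72, 4.60 and 5.62 FPKM in β-thalassemic libraries (log2 fold change -1.33 ± 0.21, adjusted p = 0.022). Lrig1, which restrains receptor tyrosine kinases, was at 4.42, 4.57 and 5.03 FPKM in WT and at 2.41, 2.37 and 2.46 FPKM in β-thalassemic libraries. Its decrease was the smallest among the 10 calls with all libraries, and its β-thalassemic libraries lay within 0.1 FPKM of each other. Khdrbs3, an RNA-binding splicing regulator, was at 3.53, 4.07 and 4.83 FPKM in WT and at 1.62, 1.53 and 1.36 FPKM in β-thalassemic libraries. Mxd4, a partner of Max that opposes Myc, was at 3.69, 2.29 and 4.08 FPKM in WT and at 1.31, 0.993 and 1.37 FPKM in β-thalassemic libraries. Mxd4 was called with and without WT replicate 1 (adjusted p = 0.034 and 0.0496). The metalloprotease gene Adam33 was at 3.31 to 4.95 FPKM in WT and at 1.49 to 1.95 FPKM in β-thalassemic libraries. The semaphorin receptor gene Plxna1 was at 2.85 to 4.05 and 1.16 to 1.54 FPKM, and its adjusted p was 0.034 with all libraries and 0.0496 without WT replicate 1.

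Without WT replicate 1, 3 further genes were higher and 5 lower. Pold3, a subunit of DNA polymerase δ, was at 23.8, 33.0 and 33.1 FPKM in WT and at 51.7, 55.02 and 51.4 FPKM in β-thalassemic libraries (adjusted p = 0.052 with WT replicate 1 and 0.014 without it). Rab6a, a GTPase of Golgi transport, was at 7.49, 23.4 and 22.7 FPKM in WT and at 40.1, 43.5 and 32.1 FPKM in β-thalassemic libraries. WT replicate 1 was low for both, and the log2 fold change of Rab6a went from 1.24 to 0.72 without it (adjusted p = 0.32 and 0.047). Sqrdl, the mitochondrial sulfide quinone oxidoreductase, was at 23.5, 30.8 and 43.1 FPKM in WT and at 16.7, 18.4 and 16.2 FPKM in β-thalassemic libraries. Its log2 fold change was -0.86 with WT replicate 1 (adjusted p = 0.14) and -1.07 without it (adjusted p = 0.0053). Amigo2, an adhesion molecule, was at 1.79, 2.50 and 5.62 FPKM in WT and at 0.718 to 0.860 FPKM in β-thalassemic libraries. Ptpn13, a tyrosine phosphatase, was at 3.13 to 4.36 and 1.53 to 2.05 FPKM. For Zg16 and Pcmtd2 the 6 libraries overlapped once WT replicate 1 was included, and their log2 fold changes without it were -0.99 and -0.56 (adjusted p = 0.030 and 0.0496).

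**Figure D3:**
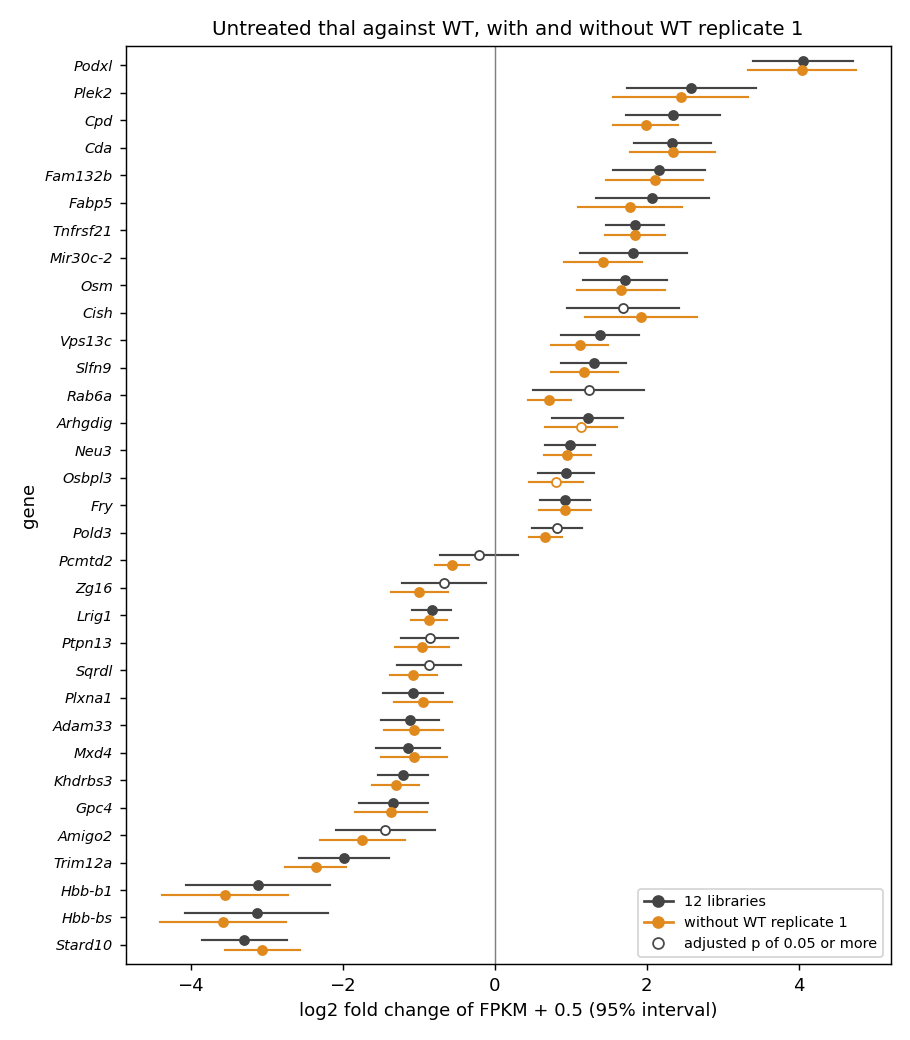
Log2 fold change of untreated β-thalassemic (thal) over WT Pro-E for the 33 genes called with all 12 libraries, without WT replicate 1, or both. The x axis is the difference of group means of log2(FPKM + 0.5), lines are 95% intervals and open points have an adjusted p of 0.05 or more; signs are the same with and without the library for all 33 genes.

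By position, 7 of the 32 called genes with a GENCODE M21 position were on chromosome 7, the chromosome of the β-globin cluster, which held 7.20% of the 9562 tested genes with a position. Apart from Hbb-bs these were Trim12a at 0.47 Mb from it, Stard10 at 2.51 Mb, Rab6a at 3.22 Mb, Pold3 at 3.74 Mb, Neu3 at 4.02 Mb and Zg16 at 23.2 Mb. Trim12a (chr7:104299894-104315466) and Stard10 (chr7:101317086-101346626) lie on opposite sides of the cluster. Of these 6, Trim12a, Stard10 and Zg16 were lower, and Neu3, Rab6a and Pold3 higher. Rab6a, Pold3 and Zg16 were called only without WT replicate 1. Because the deletion is carried with its surrounding chromosome, the deletion and linked strain variants cannot be told apart in these libraries.

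The same genotype contrast was available in the 6 apoTf-treated libraries, which share no sample with the untreated ones. There 4 genes were called, all lower (0.0415% of those tested; 136 at an unadjusted p below 0.05). They were Hbb-b1, Hbb-bs, Stard10 and Trim12a, all of them also called without treatment. Stard10 was at 109, 129 and 88.8 FPKM in apoTf-treated WT and at 22.2, 16.2 and 19.9 FPKM in apoTf-treated β-thalassemic libraries. Trim12a was at 1.95, 2.58 and 1.75 FPKM and was listed at 0 in all 3 apoTf-treated β-thalassemic libraries. It met the filter only through WT and apoTf-treated WT libraries. The Hbb-bs share of adult β-globin was 73.6% to 77.8% in apoTf-treated WT and 14.5% to 15.9% in apoTf-treated β-thalassemic libraries. With WT replicate 1 left out of the fit, which alters only the spread used for this contrast, 7 genes were called, 2 higher and 5 lower, and the higher ones were Neu3 (log2 fold change 0.88, adjusted p = 0.025) and Trim12c (0.91, adjusted p = 0.020). Without apoTf-treated WT replicate 3 the count was 2.

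Of the 25 genes called in untreated Pro-E, 22 had the same sign in the apoTf-treated contrast, 15 of 15 higher genes and 7 of 10 lower genes. In 17 of the 25 the apoTf-treated groups did not overlap in that direction, 10 higher and 7 lower, against 8.88% and 2.74% of all genes tested. The size of the difference was smaller in the apoTf-treated libraries for 22 of 25 genes. The median size of the 15 higher genes was 1.83 on the log2 scale in untreated and 0.44 in apoTf-treated Pro-E, and that of the 10 lower genes 1.27 and 0.79. Over all 9650 genes tested the median size also fell, from 0.24 to 0.07. The untreated sizes are those with WT replicate 1, which is not part of the apoTf-treated contrast. How far that library bears on these sizes was not tested. The genes were called on the untreated libraries, which by itself favours a larger size there. Podxl was at 0.286, 0.368 and 0.223 FPKM in apoTf-treated WT and at 1.56, 0.799 and 0.620 FPKM in apoTf-treated β-thalassemic libraries. Cda was at 0.459, 0.286 and 0.079 FPKM and at 0.347, 0.344 and 0.453 FPKM, and these groups overlapped. Plek2 was at 0.479, 1.98 and 1.42 FPKM and at 1.98, 2.36 and 2.38 FPKM.

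The genes kept their difference to very unequal degrees. Neu3 was at 7.20, 5.54 and 7.77 FPKM in apoTf-treated WT and at 12.3, 12.8 and 13.5 FPKM in apoTf-treated β-thalassemic libraries, a log2 fold change of 0.88 beside 0.99 without treatment. Pold3 was at 39.5, 33.5 and 38.9 FPKM and at 52.0, 54.8 and 52.4 FPKM. Gpc4 was at 14.4, 11.3 and 9.66 FPKM and at 4.36, 6.56 and 5.04 FPKM, a log2 fold change of -1.08 beside -1.33. Hbb-bh1, below the filter, was at 0.032 to 0.041 FPKM and at 0.212 to 0.499 FPKM. Trim12c was at 2.18 to 3.01 FPKM and at 4.77 to 6.08 FPKM. By contrast the apoTf-treated log2 fold changes of Mxd4, Adam33 and Plxna1 were 0.13, 0.08 and 0.11, and their groups overlapped. The difference of the genotype contrast between treatments passed for no gene by limma (0 of 9650, 473 at an unadjusted p below 0.05, and 0 without WT replicate 1 with 477), and the smallest adjusted p was 0.082, for Podxl, with 0.15 for Cda.

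**Figure D4:**
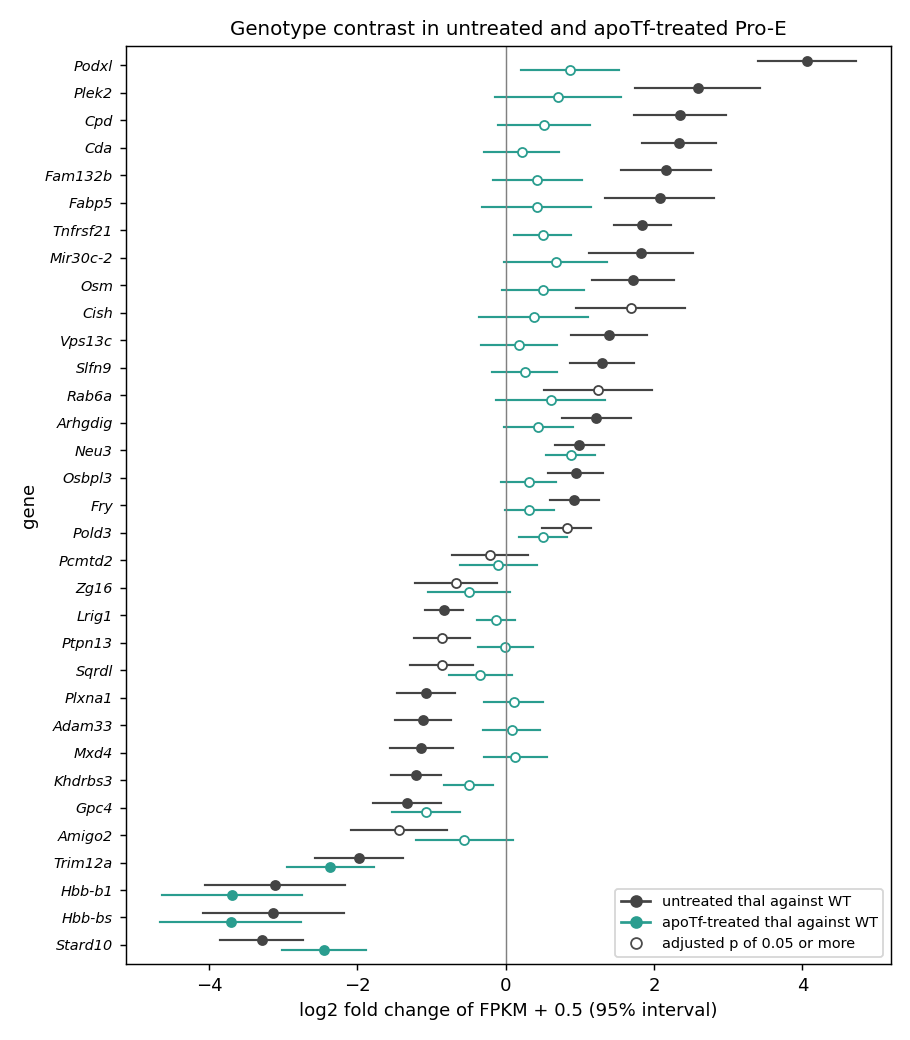
Log2 fold change of β-thalassemic over WT Pro-E in untreated and in apoTf-treated libraries for the same 33 genes. The x axis is the difference of group means of log2(FPKM + 0.5), lines are 95% intervals and open points have an adjusted p of 0.05 or more; Stard10, Hbb-b1, Hbb-bs and Trim12a are filled in both.

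The lists of genes that follow were described by their counts and medians beside those of all genes tested, whose median log2 fold change was 0.08 with all libraries and -0.06 without WT replicate 1. In the list of the Epo, JAK2 and STAT5 response, 4 of 11 tested genes rose (Podxl, Plek2, Fam132b and Osm) and none fell, against 0.155% of all genes higher. Without WT replicate 1 Cish made it 5 of 11. At an unadjusted p below 0.05, 6 of the 11 were higher and 1 lower, both with and without WT replicate 1. Of all genes tested, 2.58% were higher and 5.08% lower, and 1.64% and 6.12% without that library. The median of this list was 0.92, and 1.13 without WT replicate 1. The list holds genes that the study singled out on these samples, so its count is not independent evidence of its direction. Epor, the receptor itself, was at 79.2, 40.6 and 57.0 FPKM in WT and at 35.3, 35.1 and 48.5 FPKM in β-thalassemic libraries. It did not pass (log2 fold change -0.53, unadjusted p = 0.031 and adjusted p = 0.53 by limma). Without WT replicate 1 its log2 fold change was -0.29 (unadjusted p = 0.098 by limma). The hepcidin regulators had 1 of 2 tested genes called (Fam132b), the apoptosis and death receptor genes 1 of 21 (Tnfrsf21) and the cofilin and actin regulators 1 of 15 (Plek2).

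In the lists of the red cell programme no gene passed with or without WT replicate 1. None of 16 haem synthesis genes was called, and 1 was lower at an unadjusted p below 0.05 with and without WT replicate 1. This was Alas1, the housekeeping enzyme that starts haem synthesis, at 5.14, 4.26 and 6.84 FPKM in WT and at 2.86, 3.45 and 4.46 FPKM in β-thalassemic libraries. None of 19 iron genes was called, with 1 higher (Ncoa4, the ferritin receptor of autophagy) and 1 lower (Tfr2) at an unadjusted p below 0.05. Neither of these genes reached this without WT replicate 1 (log2 fold change 0.37 for Ncoa4 and -0.28 for Tfr2), when 0 were higher and 2 lower. None of 21 red cell membrane genes reached even that, and their log2 fold changes lay between -0.24 and 0.12 without WT replicate 1. Among 19 erythroid transcription factors none was called and 3 were lower at an unadjusted p below 0.05 with and without WT replicate 1, among them Ldb1, at 67.4 to 125 FPKM in WT and 53.2 to 73.8 FPKM in β-thalassemic libraries. Among 19 late erythroblast genes none was called and 3 were lower at an unadjusted p below 0.05, and 2 without WT replicate 1. Of the 6 early progenitor genes tested none was called, and at an unadjusted p below 0.05 none was lower with all libraries and 3 were without WT replicate 1, against 6.12% of all genes. All 6 then had a log2 fold change below 0, as did 6568 of the 9650 genes tested. Of these, the stem cell factor receptor gene Kit was at 13.7, 22.4 and 41.7 FPKM in WT and at 13.9, 13.4 and 20.0 FPKM in β-thalassemic libraries. The groups overlapped through WT replicate 1. Without it the log2 fold change of Kit was -0.96 (unadjusted p = 0.0027 by limma, adjusted p = 0.20). The proliferation factor gene Myb was at 27.4, 41.6 and 65.7 FPKM in WT and at 28.9, 33.6 and 34.1 FPKM in β-thalassemic libraries. Its groups also overlapped only with WT replicate 1, and its log2 fold change without that library was -0.69 (unadjusted p = 0.0096 by limma, adjusted p = 0.37).

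Stress and growth lists gave no call either. Txnrd1, the thioredoxin reductase that NRF2 induces, came closest among 23 antioxidant genes. It was at 15.3, 22.1 and 21.2 FPKM in WT and at 31.0, 34.7 and 33.8 FPKM in β-thalassemic libraries, with no overlap, and its log2 fold change was 0.77 (adjusted p = 0.10 by limma), and 0.60 without WT replicate 1 (adjusted p = 0.061). Gss, which makes glutathione, was at 9.12 to 10.6 and 12.02 to 13.8 FPKM (adjusted p = 0.53, and 0.34 without WT replicate 1). Among 18 genes of the haem-regulated kinase and ATF4 response none was called, with 2 higher (Mthfd2 and Psat1) and 2 lower (Sesn2 and Ddit4) at an unadjusted p below 0.05. Without WT replicate 1 only Mthfd2 was higher, and the log2 fold change of Psat1 went from 0.64 to 0.32 (unadjusted p = 0.044 and 0.17 by limma). None of 24 chaperones was called, and their median was 0.35 with all libraries and 0.12 without WT replicate 1. Of 12 interferon genes and 10 immediate early genes none was called. Ifitm3 was at 11.3 to 15.7 FPKM in WT and at 17.9 to 22.0 FPKM in β-thalassemic libraries (adjusted p = 0.28, and 0.17 without WT replicate 1), and Ier3 at 0.662 to 1.12 and at 1.75 to 2.33 FPKM (adjusted p = 0.29 and 0.31). The lists of cyclins and CDK inhibitors (15 genes), DNA replication (30), mitosis (20), glycolysis and hypoxia (16) and TGF-beta and activin (10) had none called. Bcl2l11, the death-promoting Bim gene, was at 7.01, 9.81 and 10.98 FPKM in WT and at 6.90, 6.07 and 7.78 FPKM in β-thalassemic libraries (log2 fold change -0.38, adjusted p = 0.53, and -0.56 without WT replicate 1, adjusted p = 0.13).

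Large families moved with WT replicate 1. The median over 76 ribosomal protein genes was 0.15 with all libraries and -0.13 without it, that of 70 respiratory chain subunits 0.14 and -0.09, and that of 38 proteasome subunits 0.26 and 0.05. None of their members was called either way, with 2, 1 and 0 higher and 3, 2 and 0 lower at an unadjusted p below 0.05. Without WT replicate 1 these counts were 1, 0 and 0 higher and 2, 0 and 0 lower. Among 60 clustered histone genes none was called and at an unadjusted p below 0.05 5 were lower and 0 higher, or 2 lower and 1 higher without WT replicate 1. Hist1h2ba was at 3.38, 6.88 and 7.03 FPKM in WT and at 0.753, 0.520 and 0.503 FPKM in β-thalassemic libraries, and its level in apoTf-treated WT was 0.514, 0.446 and 7.80 FPKM, so 1 library of that group stood apart (log2 fold change between untreated groups -2.46, adjusted p = 0.29, and -2.78 without WT replicate 1, adjusted p = 0.14). None of the 6 neutrophil markers tested was called. At an unadjusted p below 0.05, 2 were lower with all libraries (median -1.32) and 6 without WT replicate 1 (median -1.87). Of all genes tested, 5.08% and 6.12% were lower in these fits. Elane, Camp and Ngp reached 1 FPKM only in WT and apoTf-treated WT libraries. They met the filter only through the genotype in which they were higher, which by itself favours a lower median of this list. Only reads with 1 alignment were kept, and genes with many copies can lose reads in this way. Gapdh, for which many copies exist in the mouse genome, was at 0.445 to 0.633 FPKM in these libraries, and the cause of its level was not tested.

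**Figure D5:**
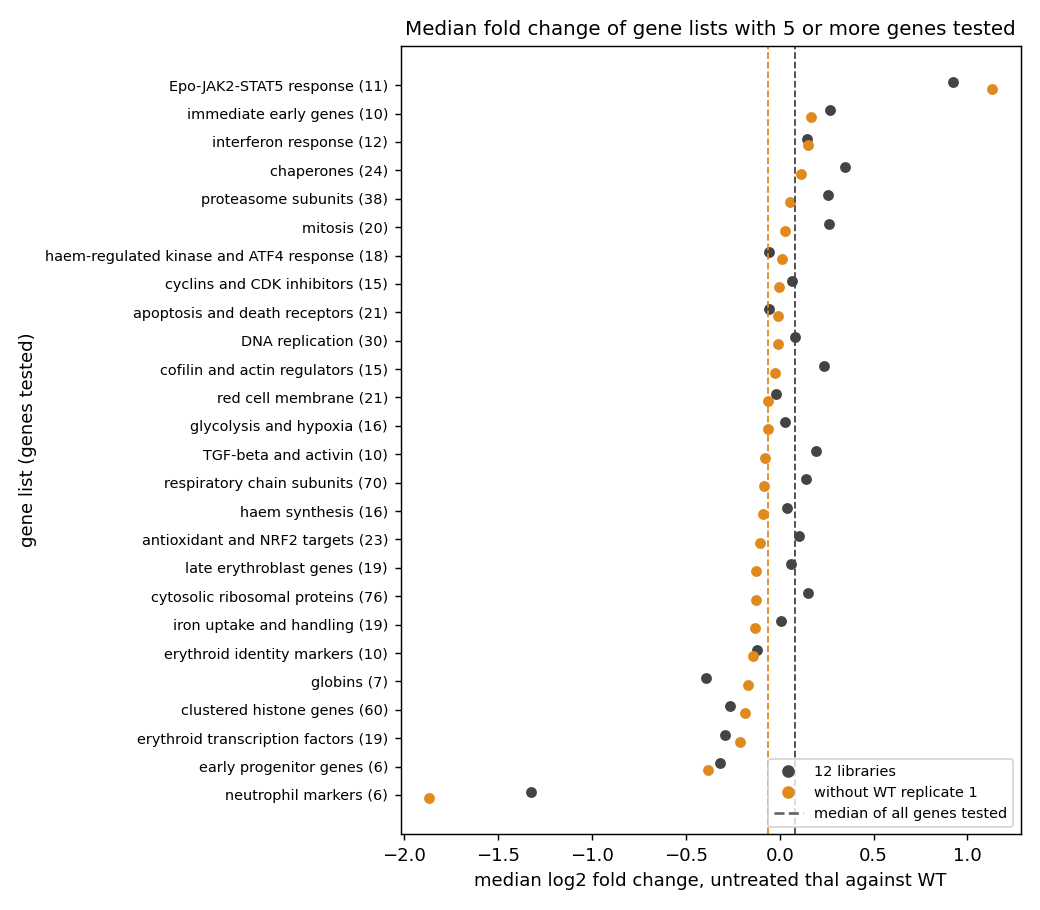
Median log2 fold change of untreated β-thalassemic (thal) and WT Pro-E for the gene lists with 5 or more genes tested, with all 12 libraries and without WT replicate 1. The x axis is the median over the list's genes, dashed lines are the medians of all genes tested (0.08 and -0.06) and the number of genes is in brackets; the Epo, JAK2 and STAT5 list lies highest and the neutrophil markers lowest. Some genes of both lists met the filter only through the genotype in which they were higher.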

How the data were processed

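Reads of polyadenylated RNA from 12 libraries were aligned by the authors with STAR (genome mm10). They used only uniquely placed reads and counted exons on both strands with HOMER. The deposited values are FPKM per library, made by the authors and rounded to 3 decimals. Versions are not given in the sources used here, where the labels list STAR, HOMER, edgeR and featureCounts. The authors' columns of fold changes after apoTf, adjusted p-values and group averages were not used.

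Depth was read from the FPKM step of 1 read in short single-exon genes, where 94.0% to 96.7% of low values were whole reads to a tolerance of 0.05. It was 33500000 to 51600000 reads per library. Genes reaching 1 FPKM in 3 or more libraries (9650) were fitted on log2(FPKM + 0.5) with limma 3.58.1 (lmFit, eBayes with trend) in R 4.3.3, with 4 group means over 12 libraries. Fold changes on this scale understate those of low genes. Tests were two-sided with a threshold of 0.05 on p adjusted over all genes. The fit was checked on simulated data that held no outlying library, so this check does not cover the effect of WT replicate 1.

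Alternatives were pseudocounts of 0.1 and 1, no filter, a 5 FPKM filter, quantile normalization, scaling by median ratios, no trend, only the groups compared, a replicate block and each library left out. The same alternatives were run without WT replicate 1 after the data were seen.

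Genes named were all those called, up to 12 per direction called without WT replicate 1 that did not overlap and reached a mean of 5 FPKM, the globins, Plek2, Podxl, Fam132b, up to 4 genes per list by p and up to 2 markers per cell type. Cish, Amigo2, Ptpn13, Zg16, Pcmtd2, Trim12c and Gapdh were named after their values were seen. The comparison, the members and the lists were chosen with earlier results of these data known. Deviations of same-numbered apoTf-treated WT and β-thalassemic libraries had correlations of 0.51, 0.25 and 0.46, so their numbers may pair them, by the data and not by the labels. Nothing says that the pools of a group came from separate experiments, so p-values measure the spread between pools. Gene positions are from GENCODE M21 (GRCm38), found for 24033 of 24453 symbols, and promoters from RefSeq (GRCm38.p6).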

Additional observations from a re-analysis of the deposited data

How the results depend on the processing

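The count of 25 genes called between untreated β-thalassemic and WT Pro-E was 8 with a filter of 5 FPKM, which tests fewer genes, 40 with quantile normalization, 9 when only the 6 untreated libraries were fitted, which leaves fewer libraries for the spread, and between 6 and 90 with 1 library left out. The low end came without β-thalassemic replicate 1 or 2 (6 genes each) and the high end without WT replicate 2 (90 genes), and it was 13 without β-thalassemic replicate 3. With a replicate block it was 13 genes. The deviations of same-numbered untreated WT and β-thalassemic libraries had correlations of -0.32, 0.37 and -0.39. These deviations are from group means that include WT replicate 1, so they cannot show whether the numbers pair these samples. In the apoTf-treated contrast and in the difference between treatments the block changed no count (4 and 0 genes). The cause of these changes was not tested. Of the 25 genes, 12 were lost with the block, 14 with no filter, 19 with only the groups compared and 12 with the 5 untreated libraries left without WT replicate 1. No called gene changed sign. The count of 31 without WT replicate 1 was 12 with a filter of 5 FPKM, 50 with quantile normalization and 12 to 69 with a further library left out (69 without WT replicate 2, 58 without β-thalassemic replicate 3, 15 without replicate 1, and 12 without replicate 2 or WT replicate 3), and 21 with the block. In apoTf-treated libraries the count of 4 was between 2 and 7 with 1 library left out, 2 without apoTf-treated WT replicate 3 and 7 without WT replicate 1. The difference between treatments gave 1 gene (Fam124a, named after its value was seen) with no filter, and 0 to 1 with 1 library left out, the 1 being Podxl without β-thalassemic replicate 2. Depth was lowest in WT replicate 1, and WT then rests on 2 libraries where it is left out.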
